A study of Mus musculus with 29 samples.

Results

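Brown adipose tissue (BAT) and gastrocnemius skeletal muscle (SkM) of untreated mice were compared over all genes, to describe what sets these tissues apart at baseline. The comparison used 7 of the 29 RNA-seq libraries of the study, the 3 BAT and the 4 SkM libraries that carry the control label. Mice received calorie restriction (CR), treadmill training (EX), both (CREX) or neither for 8 weeks, and BAT and SkM were profiled. The control mice were male wild-type C57BL/6J mice that ate chow freely from 8 weeks of age, did not run on the treadmill, and were fasted for 6 h before tissue collection. Nothing in the sources used here says whether a BAT library and a SkM library with the same number came from the same mouse, so the tissues were compared as unpaired groups. The p-values measure the spread between these libraries, and fewer cells of a type and less RNA per cell cannot be told apart in whole tissue.

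Each BAT library held 22549148 to 24665593 counts and each SkM library 23050918 to 23256570 counts. On the scale of the CPM values printed here, which are counts divided by library sizes with TMM factors, 3 counts were worth 0.107 to 0.115 CPM in a BAT library and 0.133 to 0.148 CPM in a SkM library, a limit that covers counting error only. Genes of the mitochondrial genome took 44.9% to 45.9% of the counts in BAT and 33.3% to 37.2% in SkM. The 10 most abundant nuclear genes held 12.3% to 14.0% of the remaining counts in BAT and 24.1% to 26.1% in SkM. Libraries of the same tissue correlated across genes with a Pearson's r of 0.988 to 0.995, and libraries of different tissues with an r of 0.678 to 0.731, values across genes that carry no p.

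Brown adipocytes burn fatty acids to release heat. Noradrenaline from sympathetic nerves reaches beta-adrenergic receptors, cyclic AMP activates protein kinase A, lipid droplets are broken down, and uncoupling protein 1 lets protons flow back into the mitochondrial matrix without making ATP. Muscle fibres use the same fuels, together with glycogen and phosphocreatine, to make ATP for contraction, which is driven by actin and myosin in sarcomeres and started by acetylcholine at the neuromuscular junction. Brown adipocytes and muscle fibres share many mitochondrial genes, and both arise in part from precursors that express the myogenic factor Myf5.

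Most genes differed between the tissues. Of 13797 genes tested, 8283 (60.0%) were differentially expressed genes (DEGs), which are genes with an adjusted p under 0.05 in edgeR's quasi-likelihood test and a fold change above 1.5. Of these, 4112 (29.8% of the genes tested) were higher in BAT and 4171 (30.2%) were higher in SkM. At a fold change above 8, 768 genes (5.57%) were higher in BAT and 1014 genes (7.35%) were higher in SkM. For 10255 genes (74.3%) the libraries of the tissues did not overlap, with 5114 higher in BAT and 5141 in SkM. The balance between the directions depended on the scaling of the libraries. It was 4103 to 4192 with RLE size factors, 4419 to 3842 with upper quartile scaling, and 5511 to 3032 with library totals, under which the median log2 fold change of all genes moved from -0.00 to 0.33. Log2 fold changes are of BAT over SkM throughout, and CPM values are scaled with TMM factors.

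**Figure D1:**
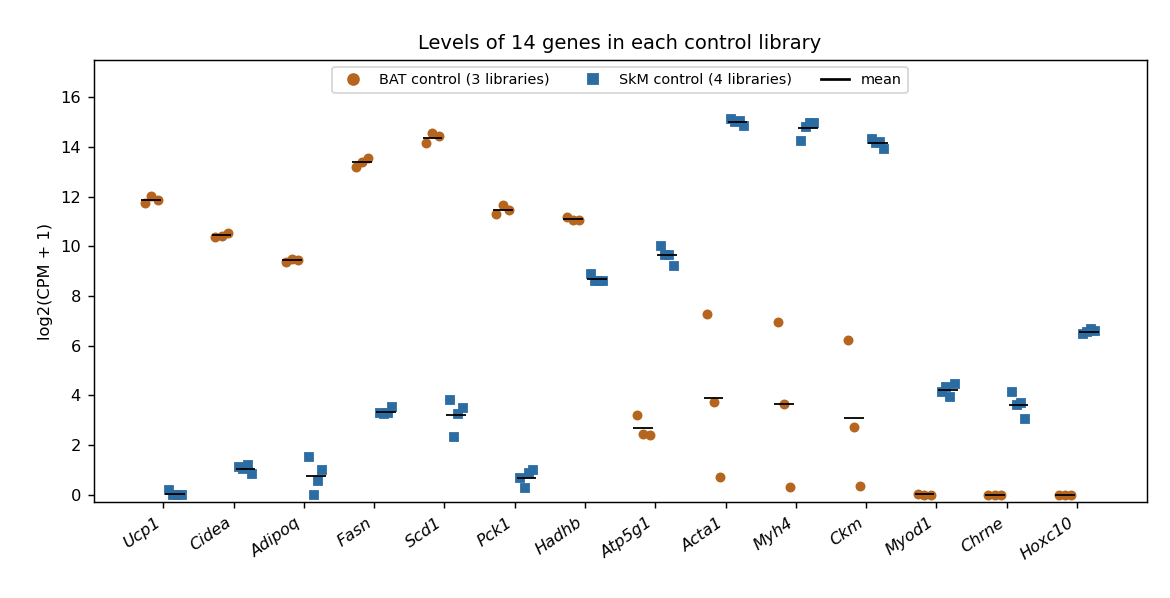
Levels of 14 genes in each control library, as log2(CPM + 1). Circles are the 3 BAT libraries, squares the 4 SkM libraries, and short lines the means. The genes from Ucp1 to Hadhb were higher in every BAT library than in any SkM library and those from Atp5g1 to Hoxc10 were lower, while Acta1, Myh4 and Ckm differed widely among the BAT libraries.

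Each library carried the defining transcripts of its labelled tissue, with Ucp1 and Cidea high in all BAT libraries and Acta1 and Ckm high in all SkM libraries. The libraries were then checked for RNA of the other tissue. Transcripts of fast muscle fibres were present in all BAT libraries, at levels that differed widely between them. Acta1 (chromosome 8 from 123891758 to 123894775, GRCm38), the actin of the muscle thin filament, stood at 153, 12.4 and 0.653 CPM in BAT control 1, 2 and 3, against 35520, 33118, 33576 and 29556 CPM in the SkM libraries. Myh4, the myosin heavy chain of the fastest fibres, stood at 124, 11.5 and 0.254 CPM in the BAT libraries and between 19521 and 31743 CPM in SkM. Over 18 fast fibre genes with at least 100 CPM in SkM, the median level was 0.495% of the SkM mean in BAT control 1, 0.0457% in BAT control 2 and 0.00303% in BAT control 3, a 163-fold range. All 18 genes were highest in BAT control 1 and lowest in BAT control 3. In BAT control 3, where 3 counts were worth 0.109 CPM, genes such as Myh2 and Actn3 stood at 0.0363 CPM. The range was smaller with the mean over the 18 genes (0.528%, 0.0792% and 0.0408%). It was also smaller with the median of the sarcomere scaffold list (0.667%, 0.118% and 0.0407%). The 18 genes summed to 803.5, 128.2 and 72.5 CPM in the BAT libraries, most of it in BAT control 3 from Myl1 and Tpm1. Myl1, a myosin light chain, and Tpm1, a tropomyosin, were singled out after their values were seen, since they stayed at 0.424% and 0.245% of the SkM mean in BAT control 3. The 12 BAT libraries of treated mice had medians from 0.0062% to 4.18% (median of the libraries 0.925%), and 8 of them lay above BAT control 1 at 0.516% on the same scaling over all libraries. The part that muscle RNA plays in the results was not tested beyond leaving out BAT control 1, and values without this library are given beside the muscle results.

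**Figure D2:**
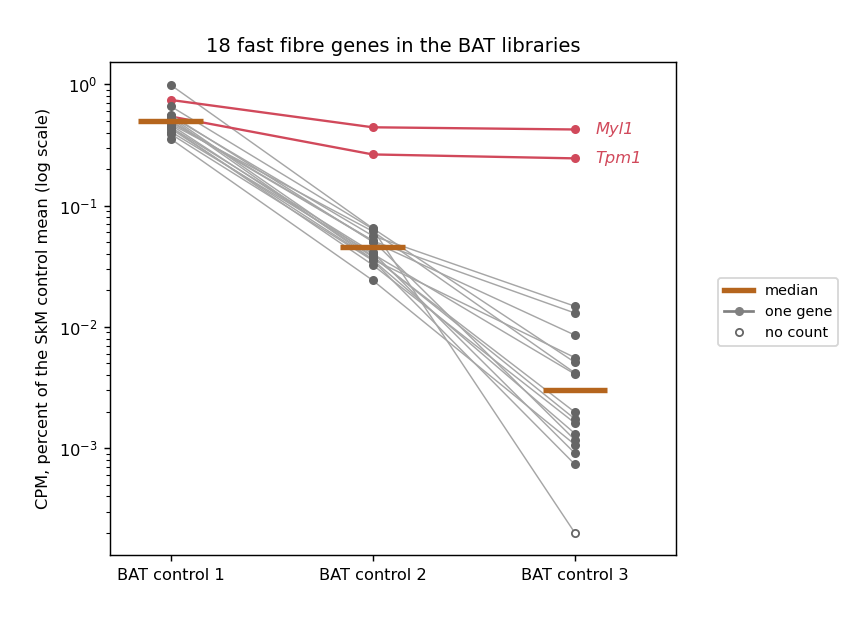
Level of 18 fast fibre genes in the 3 BAT control libraries, as a percentage of the mean of the SkM control libraries on a log scale. Each line is 1 gene, thick bars are medians (0.495%, 0.0457% and 0.00303%), and the hollow point at the bottom is a gene with no count in BAT control 3. Myl1 and Tpm1, drawn in red, stayed at 0.424% and 0.245% in BAT control 3, where the other genes lay at 0.0148% or less.

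Not every gene on the muscle lists followed this order. These lists include glycolysis, glycogen metabolism and myokines, with genes that serve both tissues. Gapdh and Pgam1, for example, stood at 20.2% and 3169% of the SkM mean in BAT control 3. Of 156 genes on the muscle lists with at least 10 CPM in SkM, 63 were at 1% or more of the SkM level in BAT control 3, the library with the least fast fibre RNA, and 40 were at 10% or more. Of the 93 genes under 1%, 74 were highest in BAT control 1 and lowest in BAT control 3. Atp2a2, the calcium pump SERCA2, stood at 38.3%, 39.6% and 35.9% of its SkM mean in the BAT libraries, and the transcription factor gene Mef2a stood at 53.5%, 48.0% and 48.5%. Their levels in BAT did not follow the fast fibre genes. Of the same 156 genes, 70 were under 0.1% of the SkM mean in BAT control 3 and 2 were in BAT control 1.

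In the other direction, genes on the adipocyte lists had counts in all SkM libraries. Whether these came from adipocytes or from other cells of the muscle was not tested. Over 30 brown and general adipocyte genes with at least 100 CPM in BAT, the median level was 2.22%, 1.51%, 1.83% and 1.60% of the BAT mean in SkM control 1 to 4. Of these genes 13 were under 1% in every SkM library and 10 were over 10% in every SkM library. Adipoq, which encodes the fat hormone adiponectin, stood at 1.88, 0, 0.482 and 1.02 CPM in the SkM libraries and 653, 710 and 702 CPM in BAT. Cfd, which encodes adipsin, stood at 11, 0.246, 5.83 and 7.35 CPM in SkM. SkM control 2 was the lowest SkM library for 14 of the 30 genes, and it held no count of Adipoq, Plin1, Cidec and Adrb3. Ucp1 had 3 counts in SkM control 1 (0.148 CPM) and none in the other SkM libraries. By contrast Lpin1, which makes diacylglycerol and acts as a coactivator, stood at 93.4% to 124% of the BAT mean, and Cox8b, a subunit of cytochrome c oxidase, at 39.1% to 72.9%.

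The largest differences named both tissues. The 10 genes with the largest fold change among those higher in BAT, with at least 10 CPM and no overlap between tissues, were Ucp1, Adtrp, Elovl3, Cpn2, Pck1, Prkar2b, Scd1, Plin1, Aspg and Slc27a2. Ucp1, the uncoupling protein of brown fat (chromosome 8 from 83290348 to 83298456, GRCm38), stood at 3373, 4197 and 3692 CPM in BAT, and the ratio of its mean to that of SkM, where the group held 3 counts, was 105007 (95% exact Poisson interval 35932 to 509189, counting error only). Adtrp, a lipid hydrolase, stood at 69.2, 86.9 and 76.0 CPM in BAT and was at least 2164-fold higher than in SkM, where no library held a count. This bound and the others of its kind are set against 3 counts over the group. Elovl3, which elongates fatty acids in brown fat, stood at 20.7, 60.3 and 53.9 CPM and was at least 1258-fold higher, with BAT control 1 lowest of the BAT libraries. Slc27a2, a fatty acid transport protein, stood at 168, 174 and 179 CPM in BAT against 0 to 0.197 CPM in SkM (log2 fold change 11.14, standard error 0.26, adjusted p = 2.5e-11). Aspg, an asparaginase, had a log2 fold change of 11.17 (adjusted p = 1.4e-11), and Cpn2, a subunit of carboxypeptidase N, was at least 687-fold higher. The fitted value of Slc27a2 was 12.20 without SkM control 2, and that of Ucp1 moved from 16.48 to 19.47 without SkM control 1, which held its 3 counts.

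On the muscle side the 10 genes were Hoxc10, Ostn, Igfn1, Barx2, Bdh1, Hoxc9, Chrne, Mettl21c, 2310065F04Rik and Asb16. Hoxc10, a homeobox gene of the hindlimb (chromosome 15 from 102966796 to 102971898, GRCm38), stood at 88.7, 92.5, 99.6 and 94.9 CPM in SkM and had no count in BAT, at least 2559-fold less. Ostn, which encodes the secreted peptide musclin, stood at 18.4, 28.7, 19.3 and 14.7 CPM and was at least 553-fold higher in SkM. Igfn1, an immunoglobulin-like protein of the Z disc, was at least 408-fold higher, at 4.94, 12.9, 11 and 31.0 CPM in SkM, with SkM control 4 highest and SkM control 1 lowest. Bdh1, the mitochondrial enzyme that oxidizes beta-hydroxybutyrate, stood at 115, 102, 74.5 and 91.3 CPM in SkM and had 3 counts in BAT, a ratio of 2607 (95% exact Poisson interval 892 to 12640). Mettl21c, a lysine methyltransferase, had 1 count in BAT and a ratio of 3030 (544 to 119697), Asb16 had 1 count and a ratio of 1750 (314 to 69140), and the log2 fold change of 2310065F04Rik was -10.45. Barx2, a homeobox factor, had no count in BAT and 9.30 to 16.6 CPM in SkM. The rule that chose these genes favours those with few or no counts in BAT. Leaving out the library that held the single count moved the fitted value of Mettl21c from -11.05 to -12.73 and that of Asb16 from -10.26 to -11.96. With BAT control 1 left out, the value of Bdh1 moved from -11.15 to -12.00 and that of 2310065F04Rik to -11.96. Igfn1 was not called without SkM control 2 (adjusted p = 0.053), and its fitted value was -10.84 without SkM control 4 against -11.48 with it.

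The start regions of a pair of muscle genes and a pair of adipose genes that lay far apart between the tissues are shown, since motifs near a start can be read beside the levels. The windows are the 250 bases before the annotated start in RefSeq (GRCm38.p6), printed 5′ to 3′ on the gene's strand, with capitals for letters that match a motif. Both strands were searched. The TATA box was taken as TATAAA in the search. The E-box that myogenic factors bind was taken as CAGCTG in the search. The CCAAT box was searched by those letters, and MEF2 and CArG box motifs are given by name alone. The DR1 element, which PPAR and RXR receptors bind, was taken as a pair of AGGTCA half-sites spaced by 1 base, with up to 2 mismatches. Acta1 lay at chr8:123894776-123895025 on the minus strand, Ckm at chr7:19410844-19411093, Adipoq at chr16:23146286-23146535 and Ucp1 at chr8:83290098-83290347, all 3 on the plus strand.
Acta1: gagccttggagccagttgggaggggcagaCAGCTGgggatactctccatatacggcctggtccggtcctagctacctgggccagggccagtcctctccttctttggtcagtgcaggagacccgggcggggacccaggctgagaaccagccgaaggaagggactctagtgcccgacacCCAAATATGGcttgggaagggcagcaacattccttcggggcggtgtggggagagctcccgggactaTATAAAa
Ckm: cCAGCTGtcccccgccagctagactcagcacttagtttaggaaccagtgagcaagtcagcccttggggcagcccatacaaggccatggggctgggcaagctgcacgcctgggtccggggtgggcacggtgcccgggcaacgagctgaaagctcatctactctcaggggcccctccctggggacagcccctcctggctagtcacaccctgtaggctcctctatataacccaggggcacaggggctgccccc
Adipoq: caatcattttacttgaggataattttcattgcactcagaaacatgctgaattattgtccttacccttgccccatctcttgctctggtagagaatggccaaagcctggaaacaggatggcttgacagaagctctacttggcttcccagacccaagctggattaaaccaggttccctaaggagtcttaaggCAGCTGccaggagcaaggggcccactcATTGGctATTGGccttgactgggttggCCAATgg
Ucp1: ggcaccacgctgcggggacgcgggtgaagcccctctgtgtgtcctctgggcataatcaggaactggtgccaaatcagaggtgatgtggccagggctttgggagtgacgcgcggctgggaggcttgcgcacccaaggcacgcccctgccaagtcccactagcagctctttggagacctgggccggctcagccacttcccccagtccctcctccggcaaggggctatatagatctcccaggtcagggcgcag

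The window of Acta1 held an E-box that began 221 bases before the start, a CArG box at 73 bases and a TATA box at 7 bases. Ckm, which encodes the creatine kinase of muscle, held an E-box at 249 bases. Adipoq held an E-box at 61 bases and CCAAT boxes at 34, 27 and 7 bases, and Ucp1 held no match, which says only that these letters are not in this window. No matches overlapped. Over all 32851 windows of the RefSeq table, 13% held an E-box, 2.92% a MEF2 motif, 1.47% a CArG box, 12.4% a TATA box, 33.8% a CCAAT box and 3.24% a DR1 element. Among 984 windows of genes more than 8-fold higher in SkM, 20.7% held an E-box, 6.4% a MEF2 motif and 2.64% a CArG box. Among 690 windows of genes more than 8-fold higher in BAT the shares were 12.6%, 1.3% and 0.725%, and over 13295 windows of all tested genes they were 12.6%, 1.88% and 1.26%. The shares of the DR1 element (2.74% for SkM, 2.90% for BAT, 2.48% for all tested genes) and of the CCAAT box (32.5%, 31.3% and 34.4%) lay closer together. A gene can have several windows, and a match is a description of letters, not of binding.

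**Figure D3:**
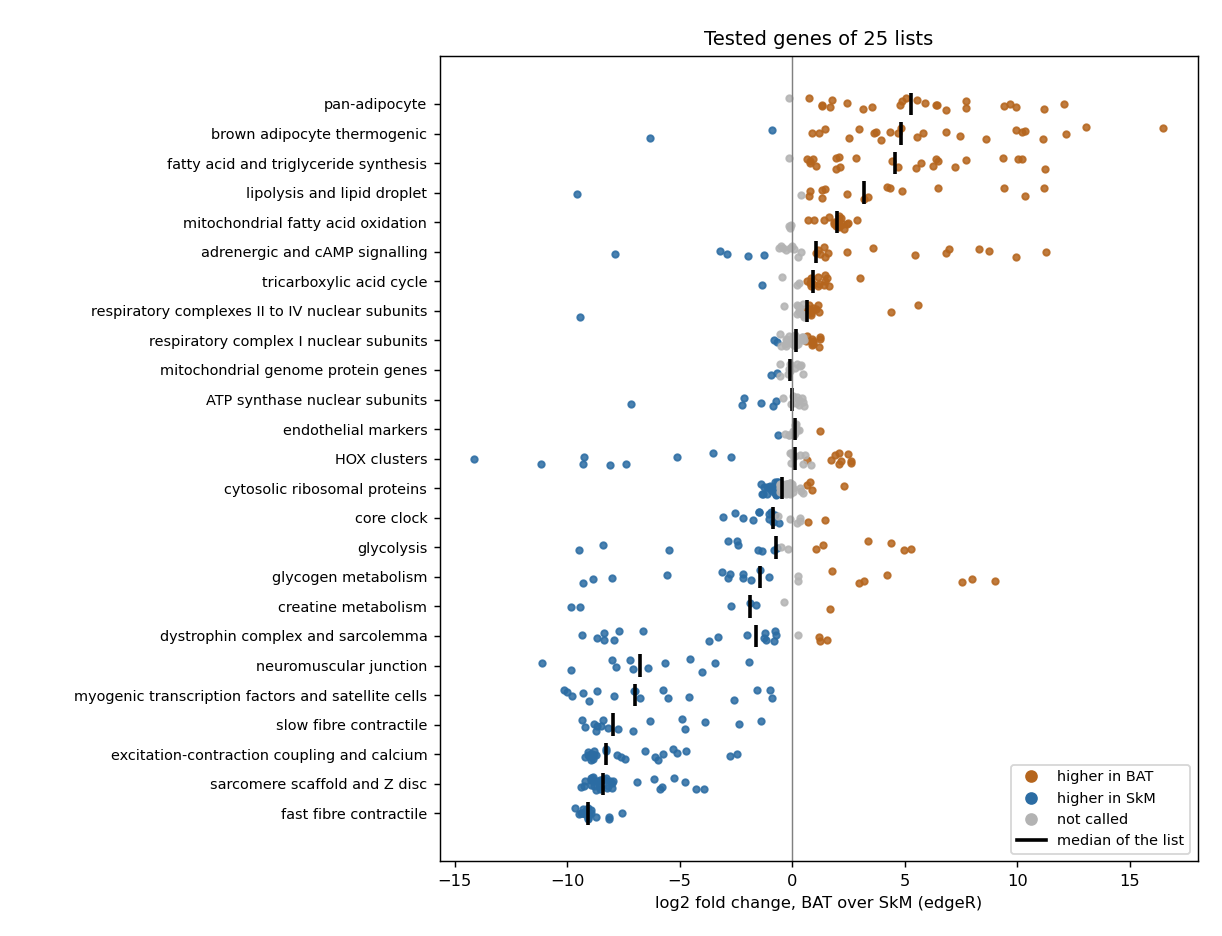
Log2 fold change of BAT over SkM for the tested genes of 25 lists. Each point is 1 gene, coloured by its call at 1.5-fold, and black bars are the medians, which ran from 5.30 for the adipocyte list to -9.09 for the fast fibre list. Lipid and adipocyte lists lie to the right, contractile lists to the left, and the lists of mitochondrial subunits around 0.

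Genes of brown and general adipocyte identity were higher in BAT. Of 25 tested brown adipocyte genes 23 (92.0%) were higher in BAT and 2 were higher in SkM, with a median log2 fold change of 4.83, against 29.8% and a median of -0.00 over all genes. Cidea, a lipid droplet protein of brown fat, stood at 1308, 1376 and 1468 CPM in BAT against between 0.797 and 1.3 CPM in SkM, 1280-fold higher (standard error of the log2 value 0.19, adjusted p = 1.1e-11). Letmd1, a mitochondrial protein of brown fat, stood at 428, 402 and 426 CPM against 7.03 to 8.53 CPM. Other members differed little or leaned to muscle. Cox8b was 1.84-fold higher in BAT (adjusted p = 7.1e-04). Esrrg, an oestrogen-related receptor that also acts in oxidative muscle, was lower in BAT (log2 fold change -0.90, adjusted p = 0.0039, and 0.055 with library totals), and so was the T-box factor Tbx15, with 2.19, 1.14 and 1.99 CPM in BAT against 114 to 162 CPM in SkM (log2 fold change -6.30). Ppargc1a, the coactivator PGC-1alpha of mitochondrial genes, stood at 71.6, 27.8 and 88.7 CPM in BAT against 20.5 to 37.7 CPM in SkM, so that the tissues overlapped and BAT control 2 lay within the SkM range (log2 fold change 1.19, adjusted p = 0.047). The call of Ppargc1a was lost without BAT control 1 (adjusted p = 0.099) or 3 (0.11) and without any 1 of the SkM libraries (0.059 to 0.13). Its relative Ppargc1b was higher in BAT without overlap (log2 fold change 2.16).

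All but 1 of the 24 general adipocyte genes were higher in BAT (95.8%, median 5.30). Fabp4, the fatty acid binding protein of adipocytes, stood at 5949, 6574 and 6619 CPM in BAT against 149 to 224 CPM in SkM (log2 fold change 5.06, standard error 0.18). Plin1, which coats lipid droplets, stood at 453, 474 and 439 CPM against 0 to 0.386 CPM (log2 fold change 11.18). Gpd1 and Car3, which are also abundant in muscle, were 8.87-fold and 2.54-fold higher in BAT. Pck1, which makes glycerol phosphate from small carbon units in fat, stood at 2535, 3216 and 2834 CPM in BAT and at most 0.975 CPM in SkM (log2 fold change 12.09, standard error 0.40, adjusted p = 8.7e-10). The nuclear receptor Pparg, the master regulator of adipocytes, had a log2 fold change of 5.88, while its relative Ppard was higher in SkM (-0.99).

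Fatty acid and triglyceride synthesis showed the same direction. Of 24 genes 23 (95.8%) were higher in BAT, 13 of them more than 8-fold, with a median of 4.57. Scd1, the desaturase that makes oleic acid (chromosome 19 from 44394450 to 44407709, GRCm38), stood at 17983, 24145 and 21948 CPM in BAT and at 12.9, 3.98, 8.48 and 10.4 CPM in SkM (log2 fold change 11.22, standard error 0.47, adjusted p = 4.8e-08). Fasn, the fatty acid synthase, stood at 9356, 10794 and 11984 CPM in BAT against 8.41 to 10.5 CPM in SkM (log2 fold change 10.19, standard error 0.20). Scd1 alone took 2.08% to 2.76% of the counts of a BAT library and Fasn 1.08% to 1.34%. Dgat2, which completes triglycerides, and Acsl1, which activates fatty acids, were 21.7-fold and 4.29-fold higher in BAT, and Mogat1, a monoacylglycerol acyltransferase, was at least 154-fold higher. Of the acetyl-CoA carboxylases, the lipogenic Acaca had a log2 fold change of 6.47 and Acacb, whose product restrains fat oxidation, one of 1.35.

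Lipolysis genes followed the lipid droplet. Of 17 genes 15 were higher in BAT and 1 was higher in SkM, with a median of 3.17. Pnpla2, the first lipase of triglyceride breakdown, stood at 2368, 2368 and 2495 CPM in BAT against 391 to 485 CPM in SkM. Lipe, the hormone-sensitive lipase, stood at 841, 846 and 854 CPM against 26.2 to 31.0 CPM (log2 fold change 4.88). The exception was Fitm1, a lipid droplet protein of muscle, at 0.537, 0.142 and 0.109 CPM in BAT against 164 to 249 CPM in SkM (log2 fold change -9.57). Cidec, a droplet fusion protein, stood at 629, 702 and 704 CPM in BAT and 2.02, 0, 1.2 and 0.797 CPM in SkM. In the fit that left out BAT control 1, the value of Fitm1 was -10.57.

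The receptors and kinases that carry the adrenergic signal were split. Of 29 tested genes of adrenergic and cyclic AMP signalling 15 (51.7%) were higher in BAT and 5 (17.2%) were higher in SkM, with a median of 1.07. Adrb3, the beta-3 receptor of adipocytes, stood at 138, 147 and 187 CPM in BAT and 0.345, 0, 0.241 and 0.0443 CPM in SkM (log2 fold change 9.94, standard error 0.32). Prkar2b, a regulatory subunit of protein kinase A, stood at 940, 1013 and 1013 CPM against 0.246 to 0.543 CPM, whereas its relative Prkar2a was higher in SkM, at 11 to 12.5 CPM in BAT against 90.3 to 139 CPM in SkM (log2 fold change -3.20). The cyclases and phosphodiesterases divided too. Pde3b, which ends the signal in adipocytes, was 312-fold higher in BAT, Adcy10 at least 63.8-fold higher, and Gnas and Akap1 were 2.1-fold and 3.05-fold higher. Adcy2 and Pde4b were higher in SkM (log2 fold changes -7.87 and -2.91, adjusted p = 1.4e-07 and 1.3e-04). The value of Adrb3 was 10.62 without SkM control 1, and that of Adcy2 was -9.97 without BAT control 1.

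Mitochondrial genes differed less than lipid genes. All called genes of fatty acid oxidation were higher in BAT, 19 of 22 (86.4%, median 2.01), none of them more than 8-fold. Hadhb, of the trifunctional protein, stood at 2332, 2136 and 2149 CPM in BAT and 470, 393, 385 and 389 CPM in SkM (log2 fold change 2.43, standard error 0.13, adjusted p = 9.1e-09). Acaa2, Echs1, Acadl and Acadm, which catalyse other steps of the spiral, had log2 fold changes of 2.88, 2.46, 2.31 and 2.12, and for none of them did the libraries overlap. The Cpt1 genes of entry into the mitochondrion gave smaller values. The other genes of this entry, Slc25a20 and Cpt2, had log2 fold changes of 2.24 and 2.05. Cpt1b, the muscle type carnitine palmitoyltransferase, averaged 611 CPM in BAT and 376 CPM in SkM (log2 fold change 0.70), while Cpt1a, the liver type, averaged 11.1 and 12.3 CPM and was not called (log2 fold change -0.14, adjusted p = 0.27).

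Genes of the tricarboxylic acid cycle were higher in BAT in 15 of 19 cases (78.9%, median 0.945). Pcx, which refills the cycle with oxaloacetate, stood at 440, 472 and 486 CPM in BAT against 50.8 to 62.5 CPM in SkM (log2 fold change 3.02). Ogdh and Cs, abundant enzymes of the cycle, were 1.93-fold and 1.78-fold higher in BAT, and Sucla2 and Dlst 3.10-fold and 2.91-fold. The call in the other direction was Idh2, at 200, 158 and 166 CPM in BAT against 357 to 533 CPM in SkM (log2 fold change -1.33, adjusted p = 8.8e-06).

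Subunits of the respiratory chain split by complex. Of 37 nuclear genes of complex I, 11 were higher in BAT and 2 in SkM (29.7% and 5.41%, median 0.18), close to the share of all genes called higher in BAT and under the 30.2% higher in SkM. Ndufa1, Ndufb3 and Ndufb6 had log2 fold changes of 1.22, 1.22 and 1.21, while Ndufa11 and Ndufs7 were higher in SkM (-0.82 and -0.69). Of 29 genes of complexes II to IV, 16 were higher in BAT and 1 in SkM (55.2% and 3.45%, median 0.64). Sdha, the flavoprotein of complex II, stood at 1377, 1401 and 1385 CPM in BAT against 541 to 645 CPM in SkM. The widest differences of these complexes were in cytochrome c oxidase. Cox6a1 stood at 1194, 1314 and 1323 CPM in BAT against 21.2 to 36.7 CPM in SkM (log2 fold change 5.60), Cox8a had a log2 fold change of 4.41, and the heart and muscle isoform Cox6a2 stood at 6.14, 0.818 and 0.0363 CPM in BAT against 1092 to 2278 CPM in SkM (-9.43, adjusted p = 0.0021). Cox6a2 was highest in BAT control 1, as the fast fibre genes were, and its value was -11.83 without that library. With library totals Ndufa11 and Ndufs7 were no longer called (-0.48 and -0.35).

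No nuclear gene of ATP synthase was called higher in BAT. Of 16 genes 6 (37.5%) were higher in SkM, against 30.2% of all genes, and the median was -0.01, or 0.33 with library totals, one of 3 lists of 39 whose median changed sign under that scaling. The genes of the proton-carrying subunit c differed most. Atp5g1 (chromosome 11 from 96072793 to 96075694, GRCm38) stood at 8.18, 4.41 and 4.35 CPM in BAT and 1036, 806, 806 and 598 CPM in SkM (log2 fold change -7.17, standard error 0.33, adjusted p = 1.8e-08), with no overlap. Atp5g3 stood at 60.7, 64.0 and 65.5 CPM against 233 to 360 CPM (-2.23). Atp5g2, named after its values were seen because it completes the family, stood at 126, 121 and 136 CPM against 172 to 275 CPM (-0.72), and its libraries did not overlap between the tissues. Of the other subunits Atp5j and Atp5c1 were lower in BAT (-2.12 and -0.87). The catalytic subunits Atp5a1 and Atp5b had log2 fold changes of 0.16 and 0.49 and were not called, and for Atp5b all BAT libraries (4026 to 4270 CPM) lay above all SkM libraries (2665 to 3246 CPM). With library totals Atp5g1, Atp5g3 and Atp5j were still called in SkM, Atp5g2 and Atp5c1 were not (-0.38 and -0.53), and Atp5b was called in BAT (0.82). Atp5g2 also fell under the fold threshold without SkM control 1 (-0.57).

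The 13 protein genes of the mitochondrial genome summed to 392600 to 405100 CPM in BAT against 340700 to 423300 CPM in SkM. None was called higher in BAT and 2 were called higher in SkM, with a median of -0.10, or 0.23 with library totals. COX1 stood at 100500, 96310 and 95179 CPM in BAT and 110400, 109150, 102020 and 89750 CPM in SkM, which overlapped. CYTB and COX2 had log2 fold changes of 0.39 and 0.33, under the fold threshold. ND6, the gene encoded on the other strand, and ATP8, which overlaps ATP6, were the calls in SkM (-0.65 and -0.92, adjusted p = 0.0021 and 0.040). ATP8 was not called without BAT control 1, 2 or 3 (adjusted p = 0.089, 0.087 and 0.071) or without SkM control 1 (log2 fold change -0.56) or 4 (0.062), and ND6 fell under the threshold without BAT control 1 (-0.58) and with library totals (-0.32), under which COX2 and CYTB were called in BAT (0.67 and 0.72). Counts of these genes depend on how overlapping and antisense reads were assigned, which was not stated.

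In SkM the level of respiratory chain genes was ordered by library. Of the 37 genes of complex I, 36 were highest in SkM control 1 and 36 were lowest in SkM control 4, and for ATP synthase it was 16 and 15 of 16. The same held for 77 and 77 of 78 genes of cytosolic ribosomal proteins. Slow fibre genes as a list did not share this order. Of 16 genes 8 were lowest in SkM control 1, among them Myh7, Tnnt1, Tnni1, Tnnc1 and Atp2a2. Another 5 were highest there, among them Myoz2 and Csrp3. The part of these library differences in the results was not tested beyond leaving out each library in turn.

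Contractile genes were higher in SkM. All 18 fast fibre genes, all 16 slow fibre genes, all 33 genes of the sarcomere scaffold and Z disc and all 26 genes of excitation-contraction coupling were called in SkM, against 30.2% of all genes. Their medians were -9.09, -7.96, -8.41 and -8.26, and without BAT control 1 they were -12.00, -9.06, -10.34 and -9.67. All 4 medians lay further from 0 without that library, and their direction was the same. Ckm stood at 74.6, 5.55 and 0.290 CPM in BAT and 20608, 18408, 18854 and 15608 CPM in SkM (log2 fold change -9.42, standard error 2.2, adjusted p = 0.0098). The BAT libraries did not overlap with SkM, and BAT control 1 lay far above the other BAT libraries. When BAT control 1 was omitted, the value for Ckm was -12.61 (adjusted p = 6.8e-05), for Acta1 -12.29 (4.3e-04) and for Myh4 -12.21 (0.0012), against -9.22 and -9.27 for Acta1 and Myh4 with it. Without BAT control 3 the value for Myh4 was -8.69.

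Among the fast fibre genes, Atp2a1, the calcium pump SERCA1, and Tnnt3, a troponin T, had the highest levels in SkM after Acta1 and Myh4, at 20596 to 25033 and 11672 to 15143 CPM. The myosin-binding protein gene Mybpc2, Actn3 and Tnnc2 had the largest fold changes (-9.63, -9.46 and -9.38). In the slow fibre list the levels varied between SkM libraries as well. Myh7, the slow myosin heavy chain, stood at 193, 651, 515 and 848 CPM in SkM, with SkM control 1 lowest, and 3.68, 0.320 and 0 CPM in BAT (log2 fold change -8.71). Atp2a2 stood at 136, 140 and 127 CPM in BAT and 180, 441, 319 and 480 CPM in SkM, the smallest difference of this list (log2 fold change -1.40, adjusted p = 0.0042). Mybpc1 and the light chain gene Myl3 had log2 fold changes of -7.74 and -8.80. Without BAT control 1 the values were -12.28 for Atp2a1, -12.51 for Tnnt3, -12.92 for Mybpc2, -12.42 for Actn3, -12.13 for Tnnc2, -11.69 for Myh7 and -10.60 for Mybpc1, and without BAT control 3 they were -8.88 for Actn3 and -8.12 for Myh7.

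The scaffold of the sarcomere gave the same picture. Ttn, the giant spring protein titin, stood at 49.4, 3.38 and 0.145 CPM in BAT against 8024 to 9194 CPM in SkM. Des, the intermediate filament desmin, kept a steadier level in BAT, at 60.2, 38.7 and 39.7 CPM against 3056 to 3424 CPM in SkM (log2 fold change -6.12, standard error 0.22). Neb, Tcap and Trim54, parts of the thin filament, the Z disc and its turnover, had log2 fold changes of -9.19, -9.24 and -9.38. Of the calcium release machinery, Ryr1, the release channel, stood at 13.9, 1.56 and 0.0363 CPM in BAT against 1936 to 2842 CPM in SkM, and the buffers Casq1 and Pvalb had log2 fold changes of -8.93 and -9.05. Of the peptide inhibitors of the calcium pumps, Sln and Pln had low levels in both tissues. Mrln stood at 17.6 to 28.8 CPM in SkM and at most 0.154 CPM in BAT. Sln, which encodes sarcolipin, stood at 0.0768, 0.107 and 0 CPM in BAT and 2.67, 1.43, 1.35 and 1.59 CPM in SkM, with 5 counts over all BAT libraries and 147 over SkM (log2 fold change -4.73). With BAT control 1 left out, the values were -12.24 for Ttn, -11.50 for Neb, -11.56 for Tcap, -11.94 for Trim54, -11.50 for Ryr1, -11.44 for Casq1 and -12.21 for Pvalb. That of Trim54 was -8.79 without BAT control 3, and that of Sln was -5.36 without BAT control 2.

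The membrane that links muscle fibres to the matrix held the exceptions. Of 20 genes of the dystrophin complex and sarcolemma 16 were higher in SkM, 3 were higher in BAT, and the median was -1.62. Sgca and Ank1 were higher in SkM (log2 fold changes -9.35 and -8.66). Utrn, the relative of dystrophin found in most tissues, stood at 42.8, 42.5 and 41.0 CPM in BAT against 15.3 to 21 CPM in SkM (log2 fold change 1.21, standard error 0.11, adjusted p = 1.1e-06). The syntrophins Sntb1 and Sntb2 were higher in BAT as well (1.57 and 1.25), and Dag1, dystroglycan, was not called (0.25, adjusted p = 0.068). In the fit that left out BAT control 1, the values of Sgca and Ank1 were -11.42 and -9.49.

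All 12 tested genes of the neuromuscular junction and all 17 tested myogenic factors and satellite cell genes were higher in SkM, against 30.2% of all genes. Members without a count in BAT, such as Chrnd, Chrne, Pax7 and Calcr, could pass the filter on low counts only through SkM, so their direction was fixed. The medians were -6.75 and -7.00, or -6.73 and -5.87 with genes that had no count in BAT set at their bound. The adult receptor subunit Chrne stood at 16.4, 11.1, 12 and 7.18 CPM in SkM and was at least 318-fold higher, and Chrnd was at least 131-fold higher. Ache, the esterase that clears acetylcholine, had a steady low level in BAT (0.537, 0.676 and 0.508 CPM against 24.4 to 35.4 CPM in SkM), and BAT control 1 was not the highest. Myod1, the myogenic master factor, stood at 16.5, 19.2, 14.4 and 21.2 CPM in SkM and had 1 count in BAT, a ratio of 1456 (95% exact Poisson interval 261 to 57517). Mstn, which encodes the growth inhibitor myostatin, had 2 counts in BAT and a ratio of 1365 (378 to 11274). The satellite cell factor Pax7 was at least 58.6-fold higher in SkM, at 1.78 to 2.56 CPM, and Myf5, at 0.938 to 1.73 CPM in SkM, had 2 counts in BAT and a ratio of 54.6 (15.1 to 451). The MEF2 factors of the fibre nuclei were present in both tissues to different degrees, since Mef2c had a log2 fold change of -5.75 and Mef2d and Mef2a of -1.58 and -1.0. When BAT control 1 was omitted, the list medians were -6.75 and -7.97, and Myod1 and Myf5 had no count in BAT.

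In cytosolic fuel metabolism, some related genes were higher in opposite tissues. Of 18 glycolysis genes 10 (55.6%) were higher in SkM and 6 (33.3%) in BAT (median -0.73), against 30.2% and 29.8% of all genes. For 21 glycogen genes these counts were 12 (57.1%) and 7 (33.3%, median -1.41), and for 7 creatine genes 5 (71.4%) and 1 (14.3%, median -1.85). In 30 pairs of related genes written down for this comparison, 15 had a gene higher in BAT and a partner higher in SkM, 4 had both on the same side, and in 11 at least 1 gene was not called. In all 15 split pairs the gene written first was the one higher in BAT. The pairs were chosen by name, so the counts describe these pairs and carry no test. With library totals the number of split pairs was 13. Transcripts of related genes can share reads, and how the counting divided them was left to RSEM's estimate.

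**Figure D4:**
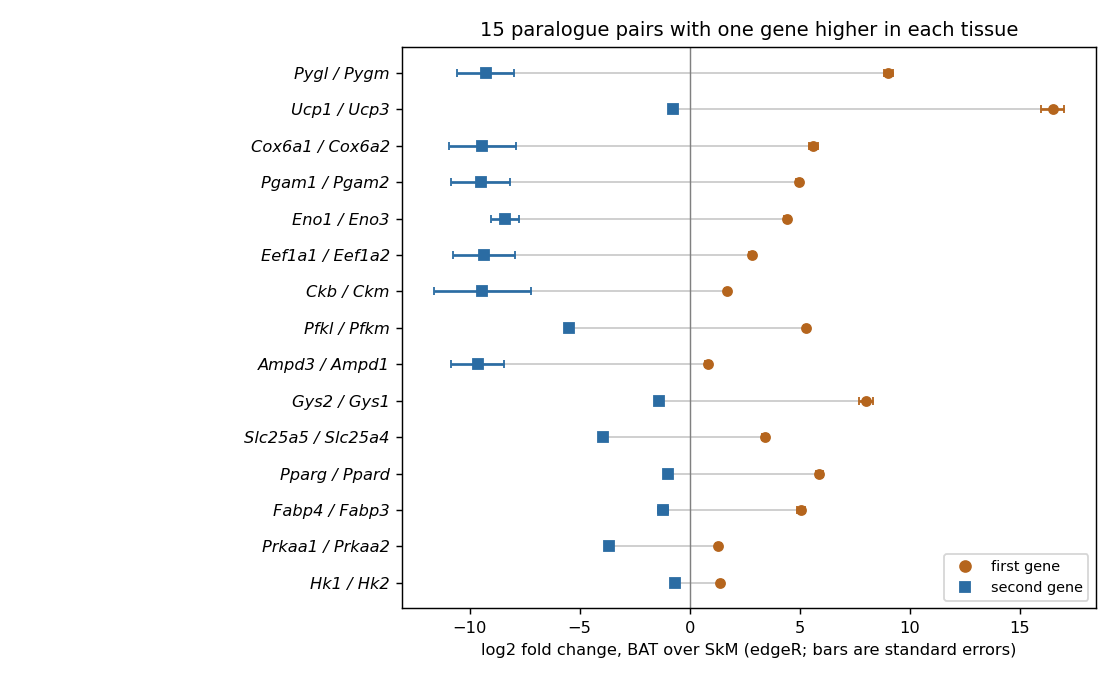
Log2 fold change of BAT over SkM for both genes of the 15 split pairs. Circles are the gene higher in BAT, squares the gene higher in SkM, and bars standard errors, which are wide for muscle genes that varied between the BAT libraries. The pair furthest apart was Pygl and Pygm (9.01 and -9.28).

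Several steps of glycolysis had a gene higher in each tissue. Pfkl, the liver type phosphofructokinase, stood at 286, 259 and 300 CPM in BAT against 7.01 to 7.57 CPM in SkM (log2 fold change 5.27), and Pfkm, the muscle type, at 63.8, 58.4 and 53.5 CPM in BAT against 2423 to 2827 CPM in SkM (-5.49). Neither tissue overlapped with the other for either gene. For phosphoglycerate mutase the values were 4.95 for Pgam1 and -9.49 for Pgam2, and for enolase 4.41 for Eno1 and -8.39 for Eno3. Aldoa, Gapdh and Pkm, which serve both tissues, were higher in SkM (-2.85, -2.41 and -1.35), at 2216 to 2548, 2380 to 2696 and 1126 to 1195 CPM in BAT. The hexokinases were divided less widely, with 1.38 for Hk1 and -0.65 for Hk2, which fell under the threshold without BAT control 2 (-0.50) or SkM control 4 (-0.57) and with library totals (-0.33). Of the lactate dehydrogenases Ldha was higher in SkM (-1.52) while Ldhb was not called (-0.19). Without BAT control 1 the values of Pgam2 and Eno3 were -11.75 and -9.22.

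Glycogen enzymes were divided by isoform in the same way. The phosphorylase Pygl stood at 369, 427 and 468 CPM in BAT against 0.487 to 1.18 CPM in SkM, whereas Pygm, the muscle form, stood at 29.8, 4.66 and 2.47 CPM in BAT against 6962 to 8300 CPM in SkM. Gys2, the liver type glycogen synthase, stood at 33.2, 55.7 and 43.0 CPM in BAT against 0.0494 to 0.344 CPM in SkM (log2 fold change 8.0), and Gys1 was higher in SkM (-1.41). The targeting subunits of the phosphatase split likewise, with Ppp1r3b at 7.56 and Ppp1r3a at -8.84. Ugp2 and Phkg1 were higher in SkM (-2.75 and -8.02). In creatine metabolism, Ckb stood at 15.2, 13.5 and 13.2 CPM in BAT against 4.10 to 4.74 CPM in SkM (1.69), while the mitochondrial kinase Ckmt2 and the transporter Slc6a8 were higher in SkM (-9.84 and -2.71). With BAT control 1 left out, the values were -11.06 for Pygm, -12.24 for Ppp1r3a and -12.41 for Ckmt2, and without BAT control 3 those of Ppp1r3a and Ckmt2 were -8.25 and -9.25.

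Other pairs reached beyond fuel. The adenine nucleotide carriers Slc25a5 and Slc25a4 had log2 fold changes of 3.43 and -3.92, the fatty acid binding proteins Fabp4 and Fabp3 of 5.06 and -1.21, and the AMP-activated kinase subunits Prkaa1 and Prkaa2 of 1.3 and -3.67. Ucp3, the uncoupling protein homologue of muscle, averaged 99.6 ± 14.7 CPM (SD, n = 3) in BAT and 171 ± 23.1 CPM (SD, n = 4) in SkM. The translation factor Eef1a1 averaged 1668 CPM in BAT and 237 CPM in SkM (2.82), and Eef1a2, the form of muscle and neurons, 2.12 and 1366 CPM (-9.34). The AMP deaminases Ampd3 and Ampd1 had values of 0.83 and -9.63. Pairs without such a division included the calcium pumps Atp2a2 and Atp2a1, both higher in SkM, and Acaca and Acacb, both higher in BAT. In the fit that left out BAT control 1, the values of Eef1a2 and Ampd1 were -12.02 and -12.07, and that of Ampd1 was -9.04 without BAT control 3. Ucp3 was not called with library totals (-0.46).

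Genes of glucose uptake and insulin signalling were called in each direction about as often as all genes. Of 16 genes 5 (31.2%) were higher in each tissue, against 29.8% in BAT and 30.2% in SkM over all genes, with a median of 0.01. Slc2a4, the insulin-regulated transporter GLUT4, stood at 250, 258 and 266 CPM in BAT and 605, 595, 545 and 551 CPM in SkM (log2 fold change -1.15, adjusted p = 1.1e-06). The fructose transporter gene Slc2a5 stood at 5.83, 7.33 and 10.4 CPM in BAT and had 2 counts in SkM, a ratio of 330 (95% exact Poisson interval 91.2 to 2722). Of the kinases that shut pyruvate dehydrogenase, Pdk4 was higher in BAT (0.76) and Pdk2 in SkM (-1.28).

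Genes of position along the body axis were called in both directions. The gastrocnemius is a hindlimb muscle, and HOX genes, which specify position, are numbered from head to tail within each cluster. Of 39 HOX genes 36 were in the table and 27 were tested, with 9 higher in BAT, 9 higher in SkM and 9 not called, or 33.3% in each direction against 29.8% and 30.2% of all genes. After the values were seen the genes were divided at number 8. Of 19 tested genes with numbers 1 to 8, 9 were higher in BAT and 1 in SkM, none more than 8-fold, and of 8 tested genes with numbers 9 to 13 all 8 were higher in SkM, each more than 8-fold. In the later group of 13 genes 8 had no count in any BAT library and 2 had none in any SkM library. Tested genes without a count in BAT, such as Hoxc9 and Hoxc10, could pass the filter on low counts only through SkM. These counts describe the division and carry no test of it.

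**Figure D5:**
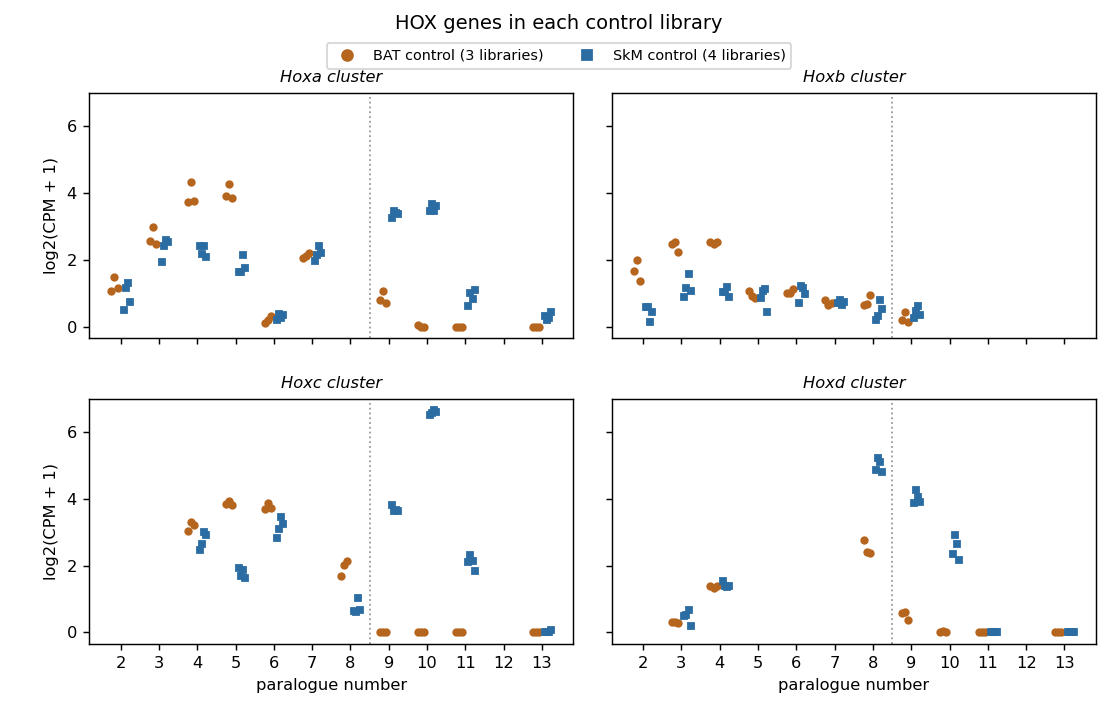
Levels of the HOX genes with numbers 2 to 13 in each control library, as log2(CPM + 1), by cluster and number. Circles are the 3 BAT libraries, squares the 4 SkM libraries, and the dotted line lies between numbers 8 and 9. All tested genes to the right of the line were higher in SkM, while Hoxa4, Hoxa5, Hoxb2, Hoxb3, Hoxb4 and Hoxc5 to its left were higher in BAT.

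Hoxa5 stood at 14.0, 18.2 and 13.3 CPM in BAT and 2.07, 2.07, 3.42 and 2.35 CPM in SkM (log2 fold change 2.61, standard error 0.18, adjusted p = 7.9e-08). Hoxc5 stood at 13.4, 14.2 and 13.2 CPM against 2.08 to 2.81 CPM (2.48), and Hoxa4 at 12.2, 19.0 and 12.5 CPM against 3.23 to 4.34 CPM (1.92). Calls in BAT also included Hoxb2, Hoxb3, Hoxb4, Hoxc6 and Hoxc8, with log2 fold changes from 0.64 to 2.63. Hoxd8, at the border, stood at 5.83, 4.30 and 4.17 CPM in BAT against 27.0 to 36.2 CPM in SkM (-2.70). Among the later genes, Hoxc9 was at least 324-fold and Hoxc11 at least 90.5-fold higher in SkM, and Hoxa11 at least 23.5-fold. Hoxa9 and Hoxd9 had low counts in BAT (log2 fold changes -3.50 and -5.10). Hoxa10 and Hoxd10 had 1 count each in BAT, with ratios of 874 (95% exact Poisson interval 157 to 34515) and 396 (71.1 to 15656). Reads of a HOX gene can overlap antisense or neighbouring transcripts of its cluster, and whether the counting used strand was not stated. Hoxc6 (0.64) fell under the fold threshold without BAT control 2 (0.58) or SkM control 1 (0.52). The fitted values of Hoxa10 and Hoxd10 were -10.96 without BAT control 1 and -9.79 without BAT control 2, the libraries that held their counts, against -9.25 and -8.11.

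Of 16 other patterning factors tested 7 (43.8%) were higher in BAT and 6 (37.5%) in SkM, against 29.8% and 30.2% of all genes. Zic1 and Lhx8, factors of brown fat, stood at 4.64 to 6.65 and 0.761 to 1.53 CPM in BAT, and Zic1 at 0.0492 to 0.709 CPM in SkM (log2 fold change 3.72), while Lhx8 had 3 counts in SkM (ratio 32.5, interval 11.1 to 157). Tbx5, a factor of the heart and forelimb, stood at 1.57, 5.37 and 3.77 CPM in BAT and had 3 counts in SkM, all in SkM control 4 (ratio 99.9, interval 34.2 to 484). Its hindlimb relative Tbx4 stood at 1.35 to 3.68 CPM in SkM and had 1 count in BAT (ratio 196, interval 35.2 to 7757). Meis2 and Tbx18 were higher in BAT (4.24 and 1.70). Lbx1, a factor of migrating limb muscle precursors, stood at 61.5, 70.7, 62.6 and 64.3 CPM in SkM and 0.154, 0.0356 and 0 CPM in BAT (-9.93), and En1 and Irx3 were higher in SkM (-3.50 and -1.2). Meox2 was not called (-0.18). Fitted values moved where a library with the few counts was left out, from -9.93 to -11.44 for Lbx1 and from -7.11 to -8.81 for Tbx4 without BAT control 1, and from 6.45 to 9.42 for Tbx5 and from 4.83 to 5.77 for Lhx8 without SkM control 4.

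Secreted factors mostly carried the name of their tissue. Of 19 tested adipokine genes 13 (68.4%) were higher in BAT and 4 (21.1%) in SkM (median 2.41). Of 16 tested myokine genes 12 were higher in SkM and 2 in BAT (median -1.99). Over all genes tested, 29.8% were higher in BAT and 30.2% in SkM. Adipoq had a log2 fold change of 9.66 (standard error 0.68, adjusted p = 2.2e-05), and Nrg4, a growth factor secreted by brown fat, stood at 67.6, 65.7 and 77.6 CPM in BAT against 0.444 to 0.771 CPM in SkM (6.81). Lep, leptin, was low in BAT and varied, at 11.7, 5.19 and 3.01 CPM, with at most 0.0987 CPM in SkM (6.43). Epdr1, Agt and Cxcl14, listed as adipokines, were higher in SkM (-6.21, -4.40 and -1.60), and Vegfa was not called (0.08). Among the myokines Fndc5, the precursor of irisin, stood at 126 to 180 CPM in SkM and 1.34 to 1.78 CPM in BAT (-6.55), while Sparc and Apln were higher in BAT (1.37 and 2.41). Fgf21 had 9 counts over the BAT libraries and none in SkM, too few to be tested. The value of Adipoq was 10.36 without SkM control 1 and that of Lep 5.74 without BAT control 1.

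Markers of other cell types differed less than those of adipocytes and fibres. Of 12 endothelial genes 1 was higher in each tissue, and their sum was 472 to 535 CPM in BAT against 421 to 502 CPM in SkM. Cldn5, a tight junction protein, was the endothelial call in BAT (1.22) and Vwf the call in SkM (-0.64). Of 12 macrophage genes 6 (50.0%, against 29.8% of all genes) were higher in BAT and none in SkM, with sums of 80.7 to 83.3 and 38 to 69.2 CPM, led by Mpeg1 (1.83). Of 11 tested fibroblast genes 4 (36.4%) were higher in SkM, near the 30.2% of all genes, and none was higher in BAT, with a median of -0.55. Of 10 smooth muscle and pericyte genes 1 was higher in BAT and 4 (40.0%) were higher in SkM, with a median of -0.37. The call in BAT was Cspg4 (2.33), and Lmod1, Myh11 and Tagln were among the calls in SkM (-1.89, -1.10 and -0.96), while the pericyte gene Rgs5 was not called (-0.37). Tendon markers were higher in SkM, led by Thbs4 (-8.33). Vwf was under the threshold without BAT control 3 (-0.58) or SkM control 4 (-0.54).

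Among Schwann cell genes, all 10 tested were lowest in SkM control 2 among the SkM libraries. Prx, which encodes periaxin of myelinating Schwann cells, stood at 7.65, 3.00, 9.45 and 15.1 CPM in SkM and at 0.691, 0.711 and 0.761 CPM in BAT (log2 fold change -3.60, standard error 0.63, adjusted p = 0.0016). The non-myelinating markers Scn7a, Cdh19 and Ngfr were higher in BAT (1.40, 1.62 and 0.83), giving 3 calls in BAT and 5 in SkM. Red cell transcripts marked a library rather than a tissue. All 5 erythroid genes were highest in BAT control 3, at 3.17 to 3.78 times the mean of the other libraries, and none was called. Hbb-bs stood at 323, 335 and 1180 CPM in BAT against 270 to 374 CPM in SkM, and it shares sequence with Hbb-bt. Hbb-bs, at a log2 fold change of 1.01, was called without BAT control 1 or 2 (1.32 and 1.31) and had a value of 0.11 without BAT control 3, and Hbb-bt had values of 1.02, 1.32 without BAT control 1, where it was called, and 0.17 without BAT control 3. Ngfr was not called without BAT control 2 (adjusted p = 0.088) or SkM control 2 (0.052).

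The call between tissues was also made in mice this comparison did not use. Over the 12 BAT and 10 SkM libraries of the CR, EX and CREX groups, with treatment as a term, 8124 of 13393 tested genes were called (60.7%). Of 7898 control calls tested there, 7080 (89.6%) were called in the same direction and 6 in the opposite one. At 8-fold, 1561 of 1569 were called in the same direction, 1371 of them again at 8-fold. List medians were 5.54 for brown adipocyte genes, 4.39 for general adipocyte genes, 4.58 for fatty acid synthesis and 2.49 for fatty acid oxidation. They were -6.78 for fast fibre, -3.11 for slow fibre and -6.03 for scaffold genes, nearer to 0 than in the control mice. Of 90 contractile and calcium handling genes 86 were called in SkM there. Of 16 slow fibre genes 13 were called and 15 had a negative log2 fold change, with adjusted p up to 0.91 in edgeR's test. Of the 12 treated BAT libraries 8 held more fast fibre RNA than any control BAT library, a part that was not tested.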

How the data were processed

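RNA-seq of BAT and SkM was deposited as a single table of expected counts per gene symbol. Per the submitters' processing notes the authors used STAR 2.7.10a and RSEM 1.2.28 with the mouse build mm10. The annotation and the strand setting were not given in the sources used here. RSEM divides reads among near-identical copies by estimate, so values of close relatives carry that uncertainty. The table held 24770 symbols, of which 27 were dates and 2 were duplicated, and 2600 rows held fractions, so the counts deposited by the authors were rounded to whole numbers.

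Of the 29 libraries the 3 BAT and 4 SkM control libraries were fitted together in R 4.3.3 with edgeR 4.0.16 (limma 3.58.1), using TMM factors, filterByExpr and the robust quasi-likelihood test, with Benjamini-Hochberg adjustment over all 13797 genes tested. Calls required an adjusted p under 0.05 with a change of more than 1.5-fold, the study's own minimum, and were made again at 8-fold. Standard errors are of the log2 fold change. A fold against a tissue without counts was set against 3 counts over the group, and 1 to 3 counts were given a ratio with a 95% exact Poisson interval. DESeq2 1.42.0, other scalings, other filters, a replicate block and leaving out each library were the alternatives. The fitting script was tested on simulated data. Tables and plots were made in Python 3.11.15 with pandas 2.3.3 and matplotlib 3.10.9. Coordinates and sequences came from RefSeq tables of GRCm38.

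The members and the gene lists were chosen with earlier results of these data known. Genes were named by rule. These were the 10 largest changes per direction with at least 10 CPM and no overlap, the most abundant (up to 4) and most changed members (up to 3 per direction) of each list, all genes of the pairs, the HOX and patterning factors, a short set including Ucp1, Ckm and Sln, and the most variable genes. Symbols of mitochondrial genes and 1 duplicate synonym were adapted to the table after it was seen. Some genes are not reported here.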

Additional observations from a re-analysis of the deposited data

Results flagged for a closer look

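Of 218 named genes with counts in SkM, 14 had a SkM library that stood apart from the other 3 by more than Dixon's 95% limit, and chance flags about 1 in 20 groups. SkM control 1 stood apart for ATP8 (56.7 CPM), Hadhb (470 CPM), Slc25a5 (35.7 CPM), Rora (44.8 CPM) and Ucp1 (0.148 CPM). SkM control 2 stood apart for Lep (0 CPM), and SkM control 3 for Agt (12.5 CPM), Hoxc8 (1.06 CPM) and Meis2 (0.723 CPM). SkM control 4 stood apart for Cers1 (0.177 CPM), Gdf1 (20.1 CPM), Gapdh (11200 CPM), Irx3 (4.92 CPM) and Tbx5 (0.133 CPM). BAT had 3 libraries and was not examined in this way.

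Fast fibre transcripts were also seen in BAT libraries of treated mice, which entered no comparison of the control tissues. The highest median over the 18 genes was 4.18% of the SkM level, above all BAT control libraries, and this was not tested.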

How the results depend on the processing

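Counts of calls kept within 1.5 times of the reported ones under most settings. Leaving out each library in turn gave 8106 to 8397 calls, with 4036 to 4155 higher in BAT and 3978 to 4242 in SkM, and 1718 to 1927 at 8-fold, with 757 to 820 in BAT and 955 to 1107 in SkM, and 14 to 15 split pairs. DESeq2 called 9109 genes. Without a filter on low counts 2788 genes passed 8-fold, 1289 of them in BAT, and with at least 10 counts in every library 619 did, 276 in BAT and 343 in SkM, while 9 pairs were split, since fewer genes were then tested. The median level of adipocyte genes in SkM control 1 to 4 was 0.453%, 0.789%, 0.479% and 0.576% with the brown adipocyte list alone, and the mean over genes was 14.6%, 14.5%, 14.4% and 14.9%. It was 1.63% in SkM control 1 with library totals and 2.34% in SkM control 4 with a minimum of 10 CPM, and the cause was not tested.

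Whether libraries with the same number share a mouse was not given, and their deviations, which correlated at 0.014, 0.068 and -0.083, did not settle it. With the replicate block 8048 genes were called (8-fold 1698), against 8106 (1718) in the same 6 libraries without it, an alternative chosen after the data were seen, and 13 against 14 pairs were split. In the fit with the block 20 named genes lost the call they had with all control libraries. Of these ATP8, Hk2, Ppargc1a and Vwf were also not called in the same 6 libraries without the block. Of 90 contractile and calcium handling genes 71 were still called, and 7 of the 18 fast fibre genes were, with all 90 in the same direction and adjusted p up to 0.11 in edgeR's test, while all 90 were called in the same 6 libraries without it and when any 1 library was left out. Acta1, Ckm and Myh4 were among those not called (0.079, 0.074 and 0.11). Over 223 named genes, each under 7 omissions of a library and 9 other settings, calls were lost in 27 cases and 40 cases, gained in 3 and 4, and reversed in 0. The 3 BAT libraries limit how well the muscle genes, which differed widely among them, can be sized.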

Other observations

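Of 78 genes of cytosolic ribosomal proteins 32 (41.0%) were higher in SkM and 4 (5.13%) in BAT, against 30.2% and 29.8% of all genes, with a median log2 fold change of -0.44 that was -0.10 with library totals. Rpl4 was higher in SkM (-1.33), and Rpl3 was higher in BAT (2.29). Of 19 core clock genes 12 (63.2%) were higher in SkM and 2 (10.5%) in BAT, with a median of -0.84. Arntl, which encodes BMAL1, stood at 2.0, 1.92 and 1.85 CPM in BAT and 12.9, 19.2, 16.1 and 15.8 CPM in SkM (log2 fold change -3.06), and the hour of collection of each tissue was not given in the sources used here. Rora and Bhlhe41 were higher in SkM (-2.55 and -2.19) and Hlf was higher in BAT (1.46).

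Immediate early genes differed between libraries of the same tissue. The list summed to 276, 971 and 513 CPM in BAT control 1, 2 and 3 and to between 572 and 700 CPM in SkM. Egr1 varied within both tissues, at 1.61, 37.4 and 1.99 CPM in BAT and 2.71, 20.4, 45.6 and 3.10 CPM in SkM. Of 24 tested genes 21 were highest in BAT control 2 among the BAT libraries and 18 were lowest in BAT control 1, and 2 were called in BAT and 5 in SkM, with a median of -0.13 that was 0.20 with library totals. Nr4a1 stood at 18, 412 and 185 CPM in BAT and 213, 196, 189 and 250 CPM in SkM, which overlapped. Nr4a2 stood at 7.06, 70.9 and 23.7 CPM in BAT against 1.52 to 3.42 CPM in SkM (log2 fold change 3.79, adjusted p = 0.011, and 2.65 without BAT control 2). The value of Nr4a1 was -0.05 and, without BAT control 2, -1.06, and it was called in neither.

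Cers1 and Gdf1 share a locus on chromosome 8. Cers1, a ceramide synthase, had 407, 446, 409 and 4 counts in SkM control 1 to 4 and Gdf1, a growth factor, had 32, 45, 93 and 454, while their sums were 439, 491, 502 and 458. Gdf1 was named after its values were seen, and how the counting divided reads between them was not tested.

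The remaining marker lists rested on few tested genes. Of 11 lymphocyte markers 2 could be tested, with 1 called in BAT. Of 8 mesothelial markers 2 could be tested, with 1 called in each tissue and a median of 2.7, or 1.32 with the gene at 0 set at its bound. Of 10 hepatocyte markers 4 could be tested, with 2 called in BAT. All 3 tested tendon markers were higher in SkM.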
